A study of Homo sapiens with 2 samples.

Results

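BH3-only proteins are the proapoptotic members of the Bcl-2 family that carry a single short BH3 domain. They sense damage, stress or the loss of growth signals, and they start the mitochondrial route of apoptosis by occupying the groove of survival proteins such as BCL2, BCL2L1 (Bcl-xl) and MCL1 or by activating the pore-forming effectors BAX and BAK1. Plasma cells and multiple myeloma (MM) cells are known to lean on MCL1, so the balance between these genes matters for their survival. The 8 BH3-only genes BBC3, PMAIP1, BCL2L11, BID, BAD, BIK, BMF and HRK were chosen by name, with earlier results of these data known. All 8 were among the 57485 genes listed in the data.

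RNA was read from the human MM line ARP1 after transduction with a lentivirus (TRIPZ vector) that expresses a hairpin against SRD5A1, an enzyme of androgen metabolism, once doxycycline (Dox) is added (ARP1-SRD5A1-KD cells). One library came from untreated cells and the other from cells given Dox, both carrying the hairpin. The genotype entry of the Dox library names SRD5A2 where its title and the design name SRD5A1, and the labels give neither a dose nor a time. The libraries held 45918570 and 48728927 expected counts, and with 1 library per condition no difference has a replicate check and no test of the condition could be made. SRD5A1 itself was listed at 13.0 FPKM (reads per 1000 bases of transcript and per 1000000 reads) without Dox and 25.9 FPKM with Dox, which goes against the label of a knockdown. Each direction below is therefore one between the library labelled with Dox and the library labelled without Dox, and "with Dox" and "without Dox" stand for these labels alone. Without a Dox-treated library lacking the hairpin, an effect of Dox and one of the hairpin cannot be told apart. Of 10 MM and plasma cell markers, 9 reached 1 FPKM (SDC1, for example, at 345 and 237 FPKM) with a median log2 ratio of -0.0005, and the summed level of all 10 was 7842 and 5820 FPKM, most of it JCHAIN at 5444 and 3515 FPKM, while of 12 markers of other cell types 9 stayed below 1 FPKM in both libraries and their summed level was 4.63 and 5.13 FPKM, with CD3D at 0 in both. Of the 3 that were tested, HBB was past 2-fold higher, at 0.43 and 1.39 FPKM on 6 and 18 counts. Of the 9 MM markers that were tested, SLAMF7 (log2 ratio 1.40) and TNFRSF17 (1.06) were past 2-fold higher with Dox, beside 17.0% of all tested genes. When the FPKM were scaled by TMM factors, TNFRSF17 was within 2-fold, at 0.84. The part of any difference in cell state in the results was not tested.

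The BH3 domain is what the members share in sequence. Its core is a leucine, any 3 residues, a small residue and an aspartate, and a single stretch of this kind was found in the coding sequence of the principal transcript of each gene (by the APPRIS tag of the annotation, then the longest), apart from BID with 2. The coding sequences of the core are shown because the class name BH3-only refers to this domain. Each has 2 codons on either side and comes from GENCODE release 29 transcripts in the sense direction. The codons of the leucine and of the small residue plus aspartate are in capitals.
BBC3: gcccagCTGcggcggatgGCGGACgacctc
BCL2L11: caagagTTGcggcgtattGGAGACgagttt
BID: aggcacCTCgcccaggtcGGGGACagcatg
PMAIP1: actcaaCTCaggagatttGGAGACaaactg
BMF: cgaaagCTTcagtgcattGCAGACcagttc
HRK: gcccggCTCaaggcgctaGGCGACgagctg
BAD: cgcgagCTCcggaggatgAGTGACgagttt
BIK: ctgcggCTGgcctgcatcGGGGACgagatg
The small residue is a glycine in BCL2L11, BID, PMAIP1, HRK and BIK, an alanine in BBC3 and BMF, and a serine in BAD. The pattern is loose, since 36.4% of 19555 coding genes hold it somewhere, and it describes these genes without defining them. For BID the stretch with glycine at residues 136 to 141 of the 241-residue product is shown, since it is the BH3 core, and the other match lies at residues 71 to 76. In each gene the shown bases lie in a single exon, and PMAIP1 encodes the smallest of these proteins with 54 residues.

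In GRCh38, the shown bases of BBC3 lie at chr19:47226585-47226614 on the reverse strand (exon 3 of 4), those of BCL2L11 at chr2:111150097-111150126 on the forward strand (exon 4 of 5) and those of BID at chr22:17739421-17739450 on the reverse strand (exon 4 of 6). Those of PMAIP1 lie at chr18:59902667-59902696 on the forward strand (exon 2 of 2), those of BMF at chr15:40104201-40104230 on the reverse strand (exon 4 of 5) and those of HRK at chr12:116881176-116881205 on the reverse strand (exon 1 of 2). BAD has them at chr11:64271628-64271657 on the reverse strand (exon 2 of 3) and BIK at chr22:43127710-43127739 on the forward strand (exon 3 of 5). Not every transcript of these genes carries the core. It is in frame in 7 of the 17 protein-coding transcripts of BCL2L11, 4 of 11 of BID, 4 of 9 of BMF, 2 of 4 of BBC3, 4 of 6 of BAD, 1 of 2 of PMAIP1 and of HRK, and in the only transcript of BIK. The tables give 1 value per gene, so the levels below add up RNAs with and without a BH3 core.

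BBC3 (Puma), HRK, PMAIP1 (Noxa) and BMF were past 2-fold higher in the library labelled with Dox, BID was past 2-fold lower, and BCL2L11 (Bim), BAD and BIK were within 2-fold. All 8 members reached 1 FPKM in one of the libraries or both, the limit for entering the comparison, HRK only through the library in which it was higher. Thus 4 of 8 members were past 2-fold higher, beside 17.0% of 14859 tested genes and 11.8% of 11459 tested protein-coding genes, and 1 of 8 was past 2-fold lower, beside 6.41% and 6.03%. In either direction it was 5 of 8, beside 23.4% and 17.8%. With a filter of at least 5 FPKM, which leaves out HRK and BIK, 3 members were past 2-fold higher. The members were chosen with earlier results of these data known, so these shares are no test of enrichment. The median log2 ratio over the 8 members was 0.75, and 0.36 over the 7 members other than HRK, beside 0.15 for all tested genes and 0.07 for the protein-coding ones. These background counts were 2521 higher and 953 lower genes with the deposited FPKM, and 1928 and 1546 when the FPKM were scaled by the TMM factors of edgeR, which moved the median of all tested genes from 0.15 to -0.06. Ratios are log2 of FPKM plus a pseudocount of 0.1, with over without Dox, which understates the change of low genes. The 95% intervals, exact binomial (Clopper-Pearson) for ratios and exact Poisson for levels, come from the counts and hold no error but that of counting.

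**Figure D1:**
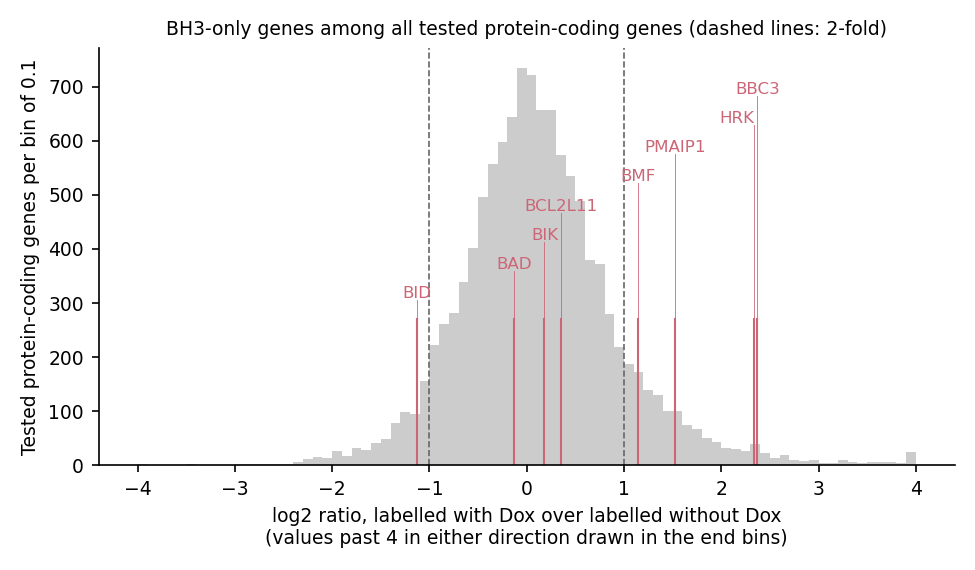
Number of tested protein-coding genes (vertical axis) per bin of 0.1 in the log2 ratio of the library labelled with Dox over the library labelled without Dox (horizontal axis), with each of the 8 BH3-only genes marked by a line. BBC3 and HRK lie far to the right at 2.37 and 2.34, BID lies left of the 2-fold line at -1.13, and BAD, BIK and BCL2L11 lie in the body of the distribution.

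BBC3, BCL2L11 and BID are the members known to activate BAX and BAK1 directly as well as to bind survival proteins, and of these BBC3 was past 2-fold higher, BID past 2-fold lower and BCL2L11 within 2-fold. BBC3 (ENSG00000105327.17, chr19:47220822-47232766, reverse strand) encodes Puma, which binds all of the main survival proteins. Its RNA had 147 counts (2.80 FPKM) without Dox and 833 counts (14.9 FPKM) with Dox. The log2 ratio was 2.37 (95% interval 2.12 to 2.63), higher than in 98.5% of tested protein-coding genes. BBC3 and HRK had the largest ratios of the 8, in an order that turned with the pseudocount, since HRK stood at 2.66 and BBC3 at 2.41 with one of 0.01 FPKM. The exons of BBC3 share 80 and 76 bases with the microRNA genes MIR3190 and MIR3191, both listed at 0.

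BCL2L11 (ENSG00000153094.22, chr2:111119378-111168447, forward strand) encodes Bim, which is held at the dynein motor complex in healthy cells and is widely known as a mediator of death in lymphoid cells. Its RNA had 3554 counts (22.3 FPKM) without Dox and 5371 counts (28.5 FPKM) with Dox. The log2 ratio was 0.36 (0.29 to 0.42), a difference beyond counting error but within 2-fold, larger than in 66.3% of tested protein-coding genes. The scaling moved it by more than that interval, from 0.14 with TMM on the FPKM to 0.51 with counts as a share of each library. On the opposite strand, the long noncoding RNA gene MIR4435-2HG shares 727 exonic bases with BCL2L11. This RNA, listed under the name AC068491.1, went the other way, from 155 to 95.9 FPKM, a log2 ratio of -0.70. No source used here says that the counting used strand, so reads in the shared bases cannot be told apart.

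BID (ENSG00000015475.18, chr22:17734138-17774770, reverse strand) links death receptors to mitochondria, since its protein is cut by caspase-8 into an active fragment. Its RNA had 3251 counts (98.1 FPKM) without Dox and 1987 counts (44.9 FPKM) with Dox. With a log2 ratio of -1.13 (-1.21 to -1.05), BID was the only member past 2-fold lower, and 4.4% of tested protein-coding genes had a smaller ratio. The microRNA gene MIR3198-1 lies within BID, shares none of its exonic bases and was listed at 0. The size of this difference rests in part on the length used for BID. Its listed average length went from 965 to 1154 bases and its effective length from 722 to 908 bases, so that the counts as a share of each library, with no length term, gave a log2 ratio of -0.80, within 2-fold. With the other pseudocounts and scalings tried, BID ranged down to -1.34.

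The other members act mainly by binding survival proteins. PMAIP1 (ENSG00000141682.11, chr18:59899948-59904306, forward strand) encodes Noxa, a selective partner of MCL1 and a target of the stress-induced ATF4 pathway. There were 882 counts (12.4 FPKM) without Dox and 2730 counts (35.7 FPKM) with Dox, a log2 ratio of 1.52 (1.41 to 1.63) that exceeded 94.7% of tested protein-coding genes. Its partner MCL1 went from 223 to 341 FPKM, so that PMAIP1 stood at 0.056 of the FPKM of MCL1 in the first library and at 0.105 in the second.

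BMF (ENSG00000104081.13, chr15:40087890-40108892, reverse strand) encodes a protein known to be held at the actin cytoskeleton and released when cells detach. There were 4767 counts (33.1 FPKM) without Dox and 12442 counts (73.1 FPKM) with Dox, the most counts of any member in either library. The log2 ratio was 1.14 (1.09 to 1.19), and it was 0.93, within 2-fold, when the FPKM were scaled by TMM or by the size factors of DESeq2. The antisense gene BMF-AS1, which shares 461 exonic bases with BMF, was listed at 0 in both libraries.

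HRK (ENSG00000135116.9, chr12:116856144-116881441, reverse strand) encodes harakiri, a partner of Bcl-xl known best from neurons. It was listed with 72 counts (0.28 FPKM) without Dox and 451 counts (1.82 FPKM) with Dox. Its log2 ratio of 2.34 (1.98 to 2.72) was close to that of BBC3, with overlapping intervals, but its level was the lowest of the 8 in both libraries, and with a pseudocount of 1 FPKM the ratio was 1.14. Even with Dox, HRK stood higher than only 47.1% of the listed protein-coding genes.

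BAD (ENSG00000002330.13, chr11:64269830-64284704, reverse strand) encodes a partner of BCL2, Bcl-xl and BCL2L2 that is switched off by phosphorylation, including by Akt. It was listed with 1080 counts (41.3 FPKM) without Dox and 1046 counts (37.8 FPKM) with Dox. The log2 ratio of -0.13 (-0.25 to -0.0024) was small and ranged from -0.35 to -0.03 over the scalings, and 37.7% of tested protein-coding genes had a smaller one. On the opposite strand, 404 exonic bases of BAD are shared with GPR137, which went from 16.0 to 26.9 FPKM. The RNA level does not measure the phosphorylation of the protein.

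BIK (ENSG00000100290.2, chr22:43110748-43129712, forward strand) encodes a protein found mostly at the endoplasmic reticulum. It was listed with 79 counts (2.42 FPKM) without Dox and 95 counts (2.76 FPKM) with Dox. The interval of its log2 ratio, 0.18 (-0.26 to 0.63), includes 0, so no difference was detectable at this depth, and the ratio was slightly below 0 with the TMM factors and with the DESeq2 size factors.

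**Figure D2:**
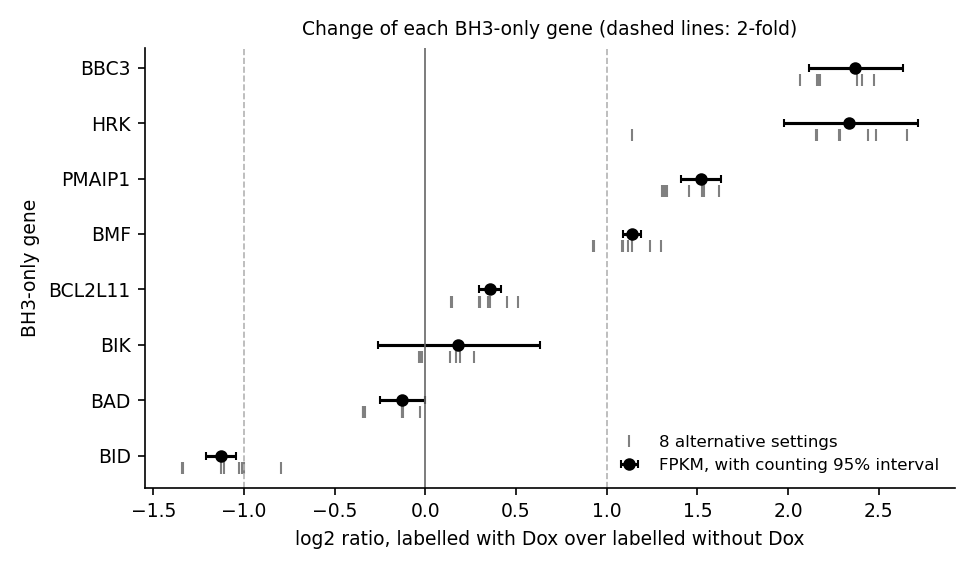
Log2 ratio of each BH3-only gene, labelled with Dox over labelled without Dox (horizontal axis), with the counting 95% interval as a bar and the values under 8 alternative pseudocounts and scalings as grey ticks. The ticks of the 4 higher genes and of BID lie on the side of 0 of their main value, while ticks of BMF (0.93) and BID (-0.80) fall inside the 2-fold lines.

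The order of the levels changed between the libraries. FPKM, which is per length, allows genes to be compared within a library. Without Dox, BID (98.1 FPKM) stood first, followed by BAD, BMF, BCL2L11, PMAIP1, BBC3, BIK and HRK (0.28 FPKM). Among neighbours in this order, the counting intervals overlapped for BBC3 and BIK alone. With Dox, BMF (73.1 FPKM) stood first, followed by BID, BAD, PMAIP1, BCL2L11, BBC3, BIK and HRK (1.82 FPKM), and the intervals overlapped for BAD and PMAIP1 alone. The ratio of BID to BMF in FPKM thus went from 2.96 to 0.61.

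**Figure D3:**
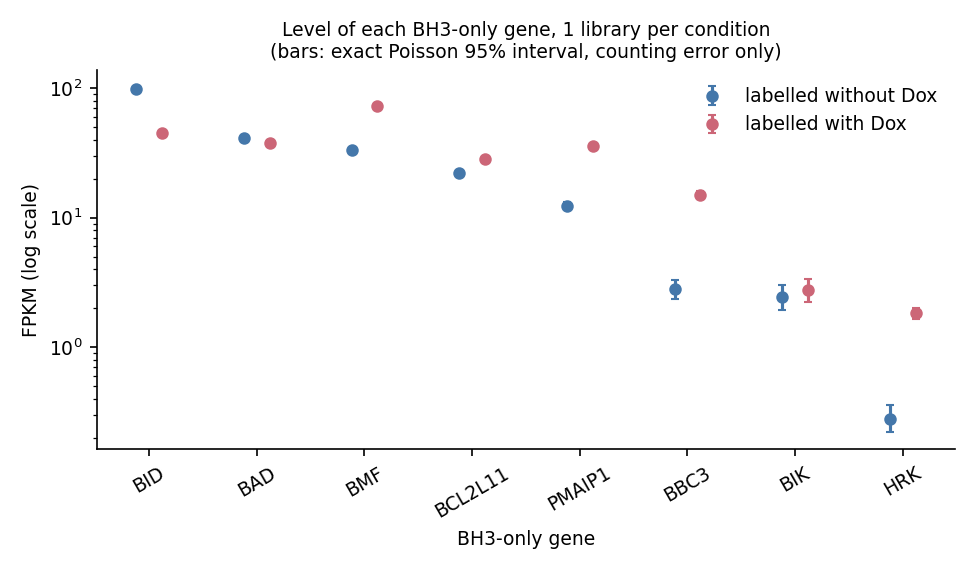
FPKM of each BH3-only gene (vertical axis, log scale) in the library labelled without Dox (blue) and the library labelled with Dox (red), 1 library each, with exact Poisson 95% intervals of the counts. BID is the highest gene without Dox at 98.1 FPKM and BMF the highest with Dox at 73.1 FPKM, and HRK is the lowest in both.

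Summed over the 8 genes with the deposited FPKM, the level moved far less than its make-up, from 213 to 240 FPKM. The sum was not taken with the other scalings, so the direction of its small difference is not settled. BID took 46.1% of this sum without Dox and 18.7% with Dox. BMF went from 15.6% to 30.5%, PMAIP1 from 5.82% to 14.9% and BBC3 from 1.32% to 6.2%. BCL2L11, at 10.5% and 11.9%, and BAD, at 19.4% and 15.8%, kept similar shares. BIK and HRK together stayed a small part, with BIK at 1.14% and 1.15% and HRK at 0.13% and 0.76%. In bulk RNA, a change in the number of cells with an RNA and a change in the RNA per cell cannot be told apart.

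**Figure D4:**
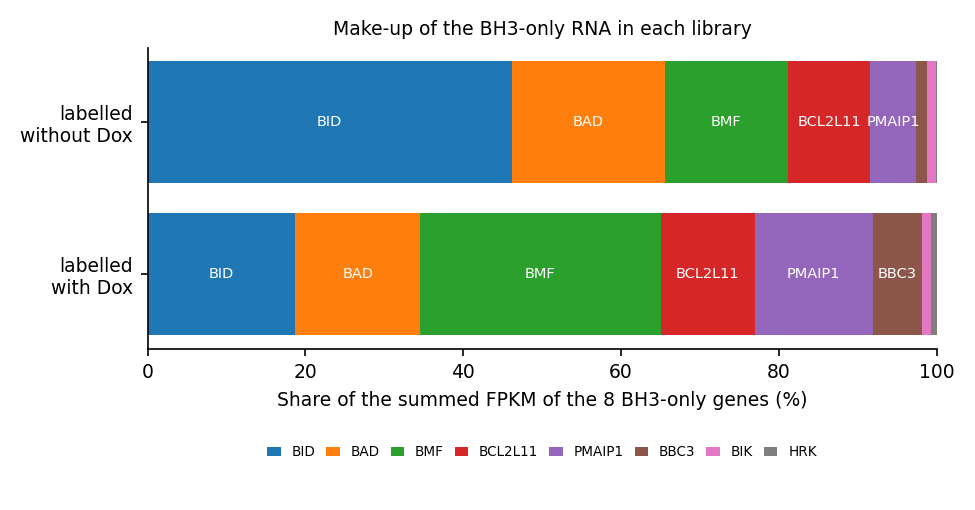
Share of each gene in the summed FPKM of the 8 BH3-only genes (horizontal axis, percent), for the library labelled without Dox (top) and the library labelled with Dox (bottom). BID fills 46.1% of the top bar and 18.7% of the bottom bar, and BMF widens from 15.6% to 30.5%.

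The average transcript length of a gene, which is weighted by the abundance of its transcripts, gave a second readout. It was higher with Dox for BMF (3378 to 3739 bases), BCL2L11 (3714 to 4108 bases) and BID (965 to 1154 bases), and it differed by at most 20.2 bases for BBC3, PMAIP1, BAD and BIK. BMF has 2 listed transcripts of 4545 and 4687 bases and 8 of 450 to 747 bases, so its average length bounds the share of its RNA assigned to the long transcripts. That share lay between 66.8% and 71.5% without Dox and between 75.9% and 80.3% with Dox, and the bounds do not overlap. The 4687-base transcript has a coding sequence of 552 bases. In BCL2L11, with 8 transcripts of at least 4995 bases and 17 of at most 1522, the bounds were 59.1% to 73.1% and 69.7% to 81.3%, which overlap. For HRK the direction was the other way, since all of its RNA was assigned to the 5789-base transcript without Dox and 90.7% to 91.7% with Dox, on 72 and 451 counts. These shares rest on the authors' apportioning of reads to transcripts, for which no error is listed.

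The promoters of the members (RefSeq, GRCh38.p14, from 250 bases before to 50 bases after each listed start) were searched for short words of factors known to act on BH3-only genes. The words were TGACTCA (AP-1), GTAAACA (forkhead factors such as FOXO3), TGATGCA (ATF4 with C/EBP), TTTCGCG (E2F), TTTGGCG (E2F) and TTTCCCG (E2F), each looked for on both strands. None of these words contains another. A promoter was found for 7 of the 8 genes, BIK being the gene without one. Matches were found in BBC3 for the AP-1 word, in BCL2L11 for the forkhead word and in PMAIP1 for the last E2F word. These words are held by 4.95%, 3.42% and 4.29% of 35116 promoters. Counted per gene, in any of its promoters, the shares are 6.05%, 4.19% and 5.19% of 27305 genes. The ATF4 word (2.63% of promoters, 3.24% of genes) and the other E2F words (1.32% and 1.92% of promoters, 1.6% and 2.32% of genes) had no match in these windows. The matches are shown with 11 bases on each side, in the sense direction of the gene and with the word in capitals.
BBC3, 113 bases before the start, chr19:47232763-47232791: gcactggaaggTGAGTCActctggtgagg
BCL2L11, 223 bases before the start, chr2:111120680-111120708: gagttactccgGTAAACAcgccagggacg
PMAIP1, 4 bases after the start, chr18:59899989-59900017: ggatctcagagTTTCCCGggcactcaccg
The word in BBC3 reads as the reverse complement of the AP-1 word. Such a match describes the letters and not a bound site.

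Several stress-responsive transcription factors known to act on these genes had higher RNA with Dox. Of 14 such factors listed with earlier results known, 12 were tested, 6 were past 2-fold higher with Dox and 6 were within 2-fold, beside the 17.0% of all tested genes that were past 2-fold higher, and the median log2 ratio of the tested factors was 1.03. ATF3 (3.94 to 99.7 FPKM), DDIT3 (8.69 to 72.9 FPKM), JUN (2.32 to 18.5 FPKM) and CEBPB (3.62 to 19.2 FPKM), all stress-responsive factors, had log2 ratios of 4.63, 3.05, 2.94 and 2.38. ATF4 went from 406 to 1027 FPKM (log2 ratio 1.34). FOXO1, a regulator of BCL2L11 that Akt keeps out of the nucleus, had a log2 ratio of 0.73, from 10.2 to 16.9 FPKM. TP63, the sixth factor past 2-fold, was named after its values were seen, at 0.69 and 2.73 FPKM.

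Among the tested survival genes and effectors, BCL2 alone was past 2-fold, going from 18.5 to 70.7 FPKM (log2 ratio 1.92). Over all tested genes, 17.0% were past 2-fold higher and 6.41% past 2-fold lower. Of 6 survival genes 4 were tested, and the others, MCL1, BCL2L2 and BCL2L1, had log2 ratios of 0.61, 0.58 and 0.25, or 0.40, 0.37 and 0.03 with TMM scaling of the FPKM. With no filter on low values, 2 survival genes were past 2-fold higher, BCL2 and a gene below 1 FPKM in both libraries. The effectors BAX and BAK1 had log2 ratios of -0.30 and -0.55. With TMM scaling these were -0.51 and -0.77 on the FPKM, and -0.55 and -0.77 on the counts. BOK, the third effector, stayed at 0.07 FPKM in both libraries. The summed FPKM of the BH3-only genes was 0.81 of that of the 6 survival genes without Dox and 0.55 with Dox. Most of the survival sum, 261 and 438 FPKM, was MCL1 at 223 and 341 FPKM. This ratio also rests on the length used for BID, and it was not taken on counts, which leave out length.

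Proteins with a BH3-like stretch outside the 8, and the proteins that hold or modify BH3-only proteins, mostly lay within 2-fold. So did most tested genes, of which 17.0% were past 2-fold higher and 6.41% past 2-fold lower. Of the 12 genes in the first list, 8 were tested, and APOL6 (5.14 to 18.0 FPKM, log2 ratio 1.79) and BNIP3L (7.11 to 18.5 FPKM, log2 ratio 1.37), which also acts in mitophagy, were past 2-fold higher and none was past 2-fold lower. RAD9A (-0.50), BNIP1 (0.49), ITM2B (0.33) and BECN1 (0.21, or -0.004 with TMM scaling of the FPKM) were within it. With TMM scaling, BNIP1 was at 0.27 on the FPKM and on the counts, and ITM2B at 0.11 and 0.05. Of 22 partners and modifiers, 21 were tested, with a median log2 ratio of 0.05, none past 2-fold higher and 2 lower. These were DYNLL1 (306 to 148 FPKM, log2 ratio -1.04, or -0.95 with TPM), the dynein light chain that binds Bim, and SFN, named after its values were seen, with 2.26 and 0.50 FPKM. CASP8, whose protein cuts BID, had a log2 ratio of 0.87, from 52.6 to 96.5 FPKM, and AKT1 one of -0.45. With TMM scaling these were 0.66 and -0.66 on the FPKM, and 0.37 and -0.82 on the counts, which leave out length.

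**Figure D5:**
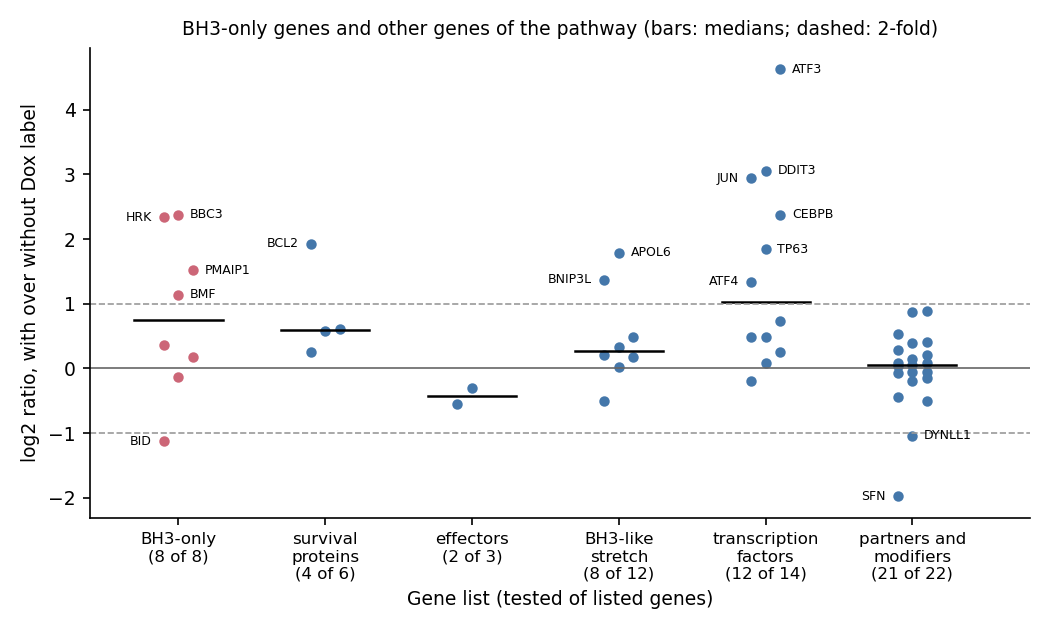
Log2 ratio, labelled with Dox over labelled without Dox (vertical axis), of the tested genes of each list (horizontal axis), with a bar at each median and names for genes past 2-fold. The BH3-only genes spread from -1.13 to 2.37 around a median of 0.75, the transcription factors reach 4.63 with ATF3, and the partners and modifiers lie around 0.05.

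The annotation deposited with the tables gives a last view of what the members share. Of the 48 terms carried by all 8, the one with the fewest genes was positive regulation of release of cytochrome c from mitochondria, with 28. Of its 20 other genes, 16 were tested, with a median log2 ratio of -0.37. Of these, 1 was past 2-fold higher (PLA2G6, log2 ratio 2.36) and 2 lower (PPIF, -1.41, and PLAUR, -1.12), beside 17.0% and 6.41% of all tested genes. This term was picked after the values were seen.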

How the data were processed

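Poly(A) RNA of the ARP1 cells was read as pairs of 150 bases, with 1 library per condition. The authors deposited, per gene, expected counts (reads apportioned among transcripts), TPM values (scaled to sum to 1000000) and FPKM values (counts over effective length and library total), together with lengths. The submitters' processing notes name Bowtie 0.12.2, HISAT2 2.1.0, StringTie 1.3.4d and hg19 without roles. The tables hold no coordinates, and GENCODE release 29 (GRCh38), which holds 202888 of the 204675 listed transcripts, gave them.

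For log2 ratios, 0.1 was added to each FPKM, and genes below 1 FPKM in both libraries were left out. The edgeR test named in the study's methods was not run, as single libraries give no dispersion, and edgeR 4.0.16 and DESeq2 1.42.0 in R 4.3.3 gave scaling factors only. Expected counts were rounded for these. Python 3.11.15, pandas 2.3.3, numpy 2.4.6, scipy 1.17.1 and matplotlib 3.10.9 were used. The depth makes 3 counts 0.065 and 0.062 of each 1000000. The log2 ratios, the 2-fold calls of changes well past the limit and the ratio intervals were checked on simulated data. These held genes with at least 5 FPKM in both libraries, counting error only and fixed lengths. Changes near the 2-fold limit, lower genes, length changes, transcript shares and promoter words were not simulated.

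All 8 members, SRD5A1 and genes that overlap a member are named. From each list, up to 6 genes with at least 5 FPKM and the largest absolute log2 ratio are named. Members and lists were chosen with earlier results of these data known. Alternatives covered pseudocount, filter, scaling and fold limit. Protein sequences were not used here. Some listed genes and a promoter element are not reported here.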

Additional observations from a re-analysis of the deposited data

How the results depend on the processing

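No paired analysis was possible because there was 1 library per condition. Over 8 other pseudocounts and scalings, the lowest log2 ratios of BBC3, PMAIP1 and HRK were 2.07, 1.31 and 1.14, past 2-fold. With a filter of at least 5 FPKM, HRK and BIK were not tested, which leaves HRK uncalled. BMF ranged from 0.93 to 1.3 and BID from -1.34 to -0.80, and BIK was below 0 in 4 of the 8. The number of members past 2-fold higher was 3 or 4. The number lower was 1, but 0 with expected counts over the library total, where the length term is left out. The median over the members was 0.84 with TPM, 0.90 with expected counts over the library total, 0.69 with TMM factors on the counts, 0.53 with TMM factors on FPKM and 0.54 with DESeq2 size factors on FPKM, the last 2 chosen after seeing the data. Of all tested genes, 1606 were higher with a pseudocount of 1 FPKM. There were 4735 higher and 1897 lower with no filter, 1256 and 603 with at least 5 FPKM, and 4358 and 2288 past 1.5-fold. With TMM factors and DESeq2 size factors on FPKM, 1546 and 1526 were lower. TNFRSF17 was within 2-fold with TMM factors, at 0.84. Depth limits BIK and HRK, with 79 and 72 counts without Dox.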
